A study of Mus musculus with 4 samples.

Results

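Cyp2b10, Cyp2b9 and Cyp2b13, cytochrome P450 enzymes of subfamily 2b, were examined in the liver of hepatic reductase null mice and control mice. Each gene was represented by the probe sets that the annotation of the MG_U74Av2 array assigns to that symbol alone, which gave 1 probe set per gene and 3 of the 8251 genes that the annotation names singly. Those of Cyp2b9 and Cyp2b13 lay mostly in the background, and Cyp2b10 alone could be tested. The series holds 4 arrays of mouse liver RNA, 2 of null mice (replicates 7 and 8) and 2 of control mice (replicates 7 and 8). The labels give 1 genotype name per group and no strain, sex, age or treatment. Per their text, RNA from 3 animals of a genotype went into one pool, whereas the control titles name a mouse, so an array may stand for a pool or for a single animal. The limma p-values draw on how far arrays of a group differ and also on the variance of other probe sets. Whether both arrays of a group came from one pool is not stated. In that case the p-values would hold no variation between animals. The number of arrays limits the precision. The known mouse line of this name lacks NADPH-cytochrome P450 oxidoreductase (Por) in hepatocytes, through a Cre recombinase driven by the albumin promoter, and its other liver cells keep the gene. Por was not analysed here, so the genotype was not checked against it.

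The microsomal P450 enzymes receive their electrons from this reductase and oxidise drugs, steroids and fatty acids. Transcription of Cyp2b10 is the classical readout of the constitutive androstane receptor CAR (gene Nr1i3), a nuclear receptor that phenobarbital activates in hepatocytes and that binds with its partner RXR to an enhancer well upstream of the gene. Cyp2b9 and Cyp2b13 are known as female-predominant P450s of mouse liver that the male pattern of growth hormone holds down. In whole liver, fewer cells of a type and less RNA per cell cannot be told apart.

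The proximal promoters are shown because they place the gene that rose beside its 2 relatives that stayed near background. They come from the RefSeq windows of build GRCm38.p6, each reaching from 250 bases before to 50 after a start, and all 3 genes had 1 window. The stretch shown of each lies before the annotated gene, on the plus strand, and is homologous between the genes. Capitals mark the bases of Cyp2b10 that differ from Cyp2b9 or have no counterpart in it, and, in Cyp2b9 and Cyp2b13, the bases in which these 2 differ from each other.
Cyp2b10 (chr7:25897413-25897551): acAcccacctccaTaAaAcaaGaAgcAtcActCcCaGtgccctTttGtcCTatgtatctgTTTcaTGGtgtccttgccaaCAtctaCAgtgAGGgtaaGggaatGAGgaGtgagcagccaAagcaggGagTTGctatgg
Cyp2b9 (chr7:26173159-26173301): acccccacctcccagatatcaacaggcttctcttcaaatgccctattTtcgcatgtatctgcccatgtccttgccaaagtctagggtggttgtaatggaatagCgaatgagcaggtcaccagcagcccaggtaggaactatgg
Cyp2b13 (chr7:26061245-26061387): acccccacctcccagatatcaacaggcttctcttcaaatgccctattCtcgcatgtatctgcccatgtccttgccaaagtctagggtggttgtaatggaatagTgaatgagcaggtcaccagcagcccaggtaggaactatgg

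Cyp2b9 and Cyp2b13 were nearly copies here. Their windows were 99.3% identical over 300 aligned positions and differed at 2 bases, both in the stretch shown. The window of Cyp2b10 was 73.4% identical to that of Cyp2b9 over 304 aligned columns, and 38 of the 139 bases shown differed. The nuclear receptor half-site AGGTCA, searched on both strands, occurred once in the windows of Cyp2b9 and of Cyp2b13 and not in that of Cyp2b10. Of all 32851 promoter windows, 16.3% held this motif. The related half-site AGTTCA, held by 14.0% of windows, occurred in none of the 3, nor did the direct repeats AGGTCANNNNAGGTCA and AGTTCANNNNAGTTCA, in which the pairs of half-sites are set apart by 4 bases. A match is a description of letters, and the enhancer that CAR binds lies outside these windows.

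The tissue was hepatocyte-rich on every array. Albumin (Alb) had signals of 9809 and 9109 on the null arrays, against 8991 and 9729 on the control arrays. Of 13 tested hepatocyte markers 0 passed in limma. At an unadjusted p under 0.05, 0 were higher and 5 lower, where 6.16% of all tested probe sets were higher and 6.46% were lower. Both null arrays lay below both control arrays for 8 of the 13, where 23.4% of all tested probe sets did so. They lay above for 1, where 20.4% did so. Null replicate 7 stood apart in markers of the pancreas: the signals of 8 tested acinar genes summed to 3281 there, against 405 on null replicate 8, 379.3 on control replicate 7 and 513.1 on control replicate 8. By limma 0 of the 8 acinar genes passed, with 1 at an unadjusted p under 0.05. The 15 tested macrophage markers summed to 3628 and 3981 on the null arrays, against 2902 and 2858 on the control arrays. By limma 2 of them rose (Mpeg1 and Mmp12), where 0.304% of all tested probe sets rose. At an unadjusted p under 0.05, 6 were higher and 0 lower, against 6.16% and 6.46% of all tested probe sets. Their median log2 difference was 0.28, with 13 positive and 2 negative. Mpeg1, which encodes a pore-forming protein of macrophages, was at 1.38 (limma adjusted p = 0.021) and lost its call without any 1 of the 4 arrays (0.065 to 0.0866). Mmp12 was background on both control arrays and was tested through its null signals alone, so its call could only be a rise. It lost its call without null replicate 7 (3.77), control replicate 7 (3.37) or control replicate 8 (3.37). Without null replicate 8 it was too dim to be tested. Its other probe set did not pass (2.58, limma adjusted p = 0.102). Those of stellate cells summed to 1642 and 1914 on the null arrays, against 1253 and 1319 on the control arrays, with 0 of 11 called by limma and 5 higher at an unadjusted p under 0.05, against 6.16% of all tested probe sets. What part these cells have in the results on Cyp2b10 was not tested. The floor used here was 7.1, the 25th percentile of all signals, and it exceeded or equalled 24.7% to 25.6% of the signals per array. Values under it are treated as background.

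Cyp2b10 (probe set 102701_at) was near background in control liver and well above it in null liver. Its signals were 265.8 and 638.3 on null replicates 7 and 8, against 3.1 and 19.3 on control replicates 7 and 8. Both null arrays were above both control arrays, by a wide margin. The same order, by any margin, was found for 20.4% of all tested probe sets. The signal of control replicate 7 lay under the floor, and 43.1% of all probe sets on control replicate 8 were as dim as Cyp2b10 or dimmer. On the null arrays 89.0% (replicate 7) and 95.0% (replicate 8) of probe sets were as dim or dimmer. The mean signal was 452.1 ± 263 in null liver and 11.2 ± 11.5 in control liver (SD, n = 2 each).

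**Figure D1:**
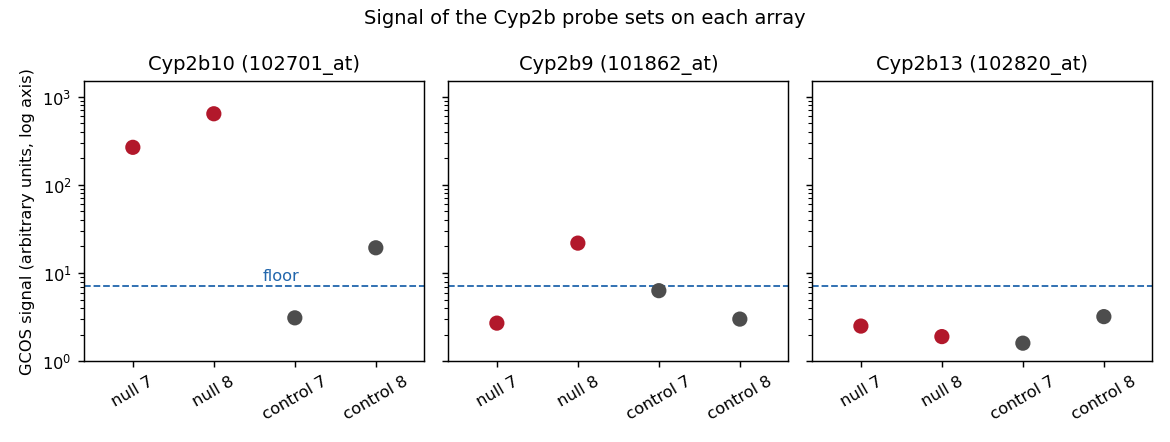
Deposited signal of the 3 Cyp2b probe sets on each of the 4 arrays, null arrays (red) left of control arrays (grey), on a log axis in arbitrary units; points are single arrays and the dashed line is the floor of 7.1. Cyp2b10 lies at 265.8 and 638.3 on the null arrays, whereas Cyp2b9 rises above the floor on null replicate 8 alone and Cyp2b13 on no array.

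Cyp2b10 rose in null liver by 5.14 ± 0.55 on the log2 scale with signals floored at 7.1 (SE, limma adjusted p = 0.0253). Its p-value was adjusted over the 7241 probe sets whose mean log2 signal exceeded log2 of 16.8. At an adjusted p under 0.05, 0.304% of the tested probe sets were higher and 0.0829% were lower in null liver. Cyp2b10 had the largest rise of all 7241, ahead of a probe set unnamed or with several names here at 3.75, and it was the only one above 4 on this scale. This rank was 1 in 12 of the 13 alternatives, but without null replicate 8 it was 6, where the largest value was 7.50. The size behind the rank depends on the floor, since the control level lay near background, and with the floor at the 50th percentile it was 3.93 against 3.53 for the next probe set. By p-value it ranked 12. It passed the filter on dim signals through its null arrays alone, since its control level was 11.7 (mean of floored log2 signals, as a signal), so a tested Cyp2b10 had to be higher in null liver.

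The size of the rise was not well fixed. Set against control replicate 8, the brighter control, the signal was 13.8 times as high on null replicate 7 and 33.1 times as high on null replicate 8. Control replicate 7 lay under the floor and gives no ratio. The fitted ratio of the floored means was 35.2. The null arrays differed from each other by 1.26 on the log2 scale and the control arrays, after the floor, by 1.44. Gaps of this size were unusual, as 96.3% of tested probe sets had a smaller gap between the null arrays and 98.0% a smaller one between the control arrays. The rise of 5.14 exceeded both gaps. Its SE of 0.55 also draws on the variance of other probe sets, most of which had smaller gaps. This SE is therefore smaller than the gaps of Cyp2b10 alone would give.

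The call rested on both null arrays. Without null replicate 7, the array with pancreatic RNA markers, the log2 difference was 5.77 (limma adjusted p = 0.0636), and without null replicate 8 it was 4.51 (adjusted p = 0.11). Each of these fits assumed that the lone null array varied like the control arrays. The call held without control replicate 7 (4.42, adjusted p = 0.0326) and without control replicate 8 (5.86, adjusted p = 0.0144), each under the same assumption for the lone control array. It also ended with a floor at the 10th percentile (5.73, adjusted p = 0.0623) or the 50th (3.93, adjusted p = 0.238), without the filter on dim probe sets (5.14, adjusted p = 0.343) and without an intensity trend in the variance (5.14, adjusted p = 0.315). The difference was positive under all 13 alternatives, but these reuse the same arrays, so its sign is not separate evidence for the rise.

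**Figure D2:**
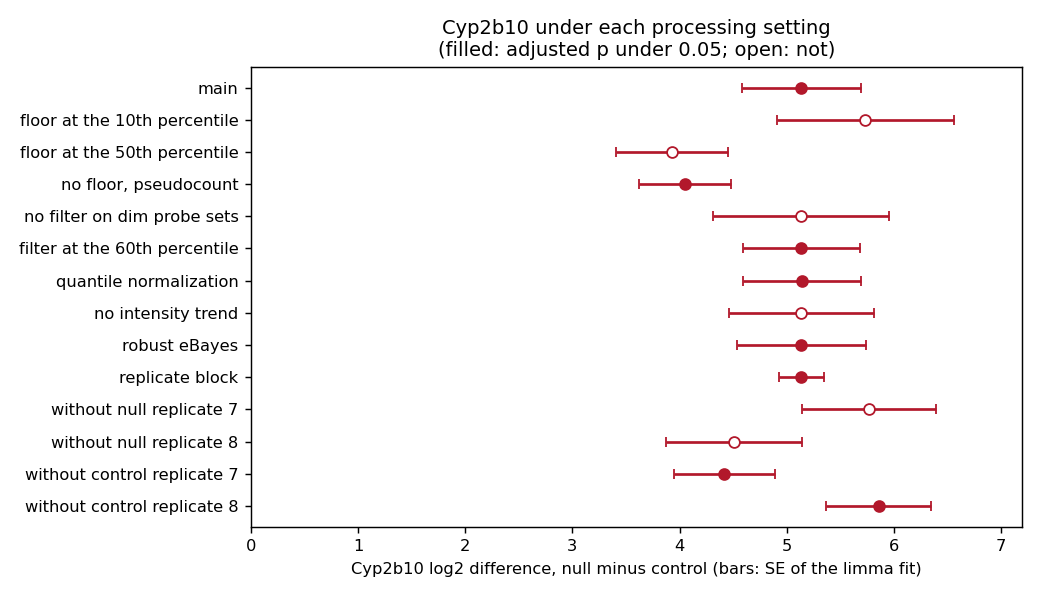
Log2 difference of Cyp2b10, null minus control, for the reported setting (main, top) and 13 alternatives; bars are the SE of the limma fit, and filled points have an adjusted p under 0.05. The values run between 3.93 and 5.86, with 7 of the 13 alternatives filled and 6 open.

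Cyp2b9 (101862_at) stayed at background except on 1 array. Its signals were 2.7 and 21.8 on null replicates 7 and 8, against 6.3 and 3.0 on control replicates 7 and 8. The groups overlapped, and 3 of the 4 signals lay under the floor. The raised value was on null replicate 8, which also had the highest Cyp2b10 signal. Whether transcripts of related genes of the subfamily add to the Cyp2b9 signal was not tested. Cyp2b9 was too dim to be tested in the reported setting. Its floored log2 difference was 0.81, which became 1.62 without null replicate 7 and 0 without null replicate 8, so the value came from that array alone. With no filter on dim probe sets limma gave an adjusted p of 0.76.

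Cyp2b13 (102820_at) had no signal above the floor on any array. It was at 2.5 and 1.9 on null replicates 7 and 8, against 1.6 and 3.2 on control replicates 7 and 8. The groups overlapped, and no fold is given since every value lay under 7.1. At these signals a low level of Cyp2b13 or Cyp2b9 RNA was not detectable. Cyp2b19, the subfamily member known from skin keratinocytes, was likewise under the floor throughout, at 4.1 and 4.7 on the null arrays against 3.3 and 3.5 on the control arrays.

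The measured responses of the members were unequal, and the difference between them was tested by permutation alone. The log2 rise of Cyp2b10 was 4.33 larger than that of Cyp2b9 and 5.14 larger than that of Cyp2b13, both after the floor. An exact two-sided permutation test of the within-array ratio gave p = 0.333 for both pairs, the smallest value this design allows. Because the floor hides any movement of the dim genes beneath it, these differences compare a measured rise with a bounded one.

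The neighbours of Cyp2b10 on chromosome 7 gave no call in the reported setting. P450 genes of subfamilies 2a, 2f, 2g, 2s and 2t lie in the same cluster, and of 22 genes of this neighbourhood 10 had a probe set of their own and 7 passed the filter. Of these 7, 0 rose and 0 fell by limma. At an unadjusted p under 0.05, 1 of them was lower, where 6.46% of all tested probe sets were lower. Their median log2 difference was -0.03, against -0.01 over all tested probe sets. Cyp2f2, a P450 of periportal hepatocytes, was at 2232 and 2113 on the null arrays, against 3028 and 3021 on the control arrays (-0.48 ± 0.07, adjusted p = 0.0667). It passed as lower with the filter at the 60th percentile (adjusted p = 0.0425), with quantile normalization (0.046) and with robust eBayes (0.0463). Cyp2a12, a steroid hydroxylase, was at 1692 and 1589 on the null arrays, against 1508 and 1620 on the control arrays, where the groups overlapped.

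No change of the receptor that controls Cyp2b10 passed the test. Nr1i3 had 3 probe sets, and on the brightest (102171_r_at) the signals were 390.6 and 376.1 in null liver, against 457.6 and 436.1 in control liver (-0.22 ± 0.11, limma adjusted p = 0.479). The other 2 probe sets were at -0.18 (104507_g_at) and 0.08 (104506_at). PXR (Nr1i2), which shares target genes with CAR, was at 57.2 and 91.7 on the null arrays, against 90.4 and 79.3 on the control arrays, with overlap. Its value of -0.23 became 0.12 without null replicate 7. Of 17 tested genes of CAR, PXR, their partners and co-regulators, 0 rose and 0 fell by limma, with a median of -0.19. At an unadjusted p under 0.05 there were 1 higher and 4 lower of the 17, against 6.16% and 6.46% of all tested probe sets.

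Among the other genes of that list, Egfr, the growth factor receptor whose signalling is known to hold CAR inactive in hepatocytes, was at 671.7 and 781.6 in null liver, against 927.7 and 915.6 in control liver on its brightest probe set (-0.35 ± 0.11, adjusted p = 0.268). Of its other probe sets, 101841_at was also lower, at -0.66 (limma adjusted p = 0.0839). The dimmest, 101840_at, was higher, at 0.31 (limma adjusted p = 0.453). Rxra, which encodes the partner of CAR, was at 0.37 ± 0.20, and Gadd45b, a stress gene that CAR induces and binds, at 0.84 ± 0.30 (adjusted p = 0.328). Cebpa, a hepatocyte transcription factor, was at -0.32 ± 0.07 (adjusted p = 0.141) and Rxrb, another RXR, at -0.52 ± 0.15.

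The difference of Cyp2b10 was larger than that of any other target of CAR and PXR tested here. Of 34 tested target genes besides it, 2 rose (Gstm3 and Cyp3a11) and 0 fell by limma (16 higher and 0 lower at an unadjusted p under 0.05, against 6.16% and 6.46% of all tested probe sets). Their median log2 difference was 0.28 against -0.01 over all tested probe sets. Both null arrays lay above both control arrays for 18 of the 34, where 20.4% of all tested probe sets did so, and both lay below for 0 of the 34, where 23.4% did so. These counts share the 4 arrays with Cyp2b10, and the list was chosen with earlier results of these data known. They describe the list and are not a test of it. The count of 2 was 0 with the 50th percentile as floor, without the filter or without an intensity trend, and 1 without control replicate 7, where Cyp3a11 did not pass (0.76, adjusted p = 0.138). Without control replicate 8 Cyp3a11 did not pass either (0.85, adjusted p = 0.0955), and the count was 2 because Cyp2c29 did (adjusted p = 0.0406).

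Gstm3, a mu class glutathione transferase, had signals of 4860 and 6621 in null liver, against 1322 and 1304 in control liver, a log2 difference of 2.11 ± 0.14 on its brighter probe set (97681_f_at). The other (97682_r_at) was at 3857 and 4892 in null liver, against 339.1 and 417.5 in control liver, a log2 difference of 3.53 ± 0.15. Its probe sets are of types (_f_at and _r_at) that can bind related transferases. Cyp3a11, the main P450 induced through PXR, had signals of 4796 and 5293 in null liver, against 2790 and 2974 in control liver, a log2 difference of 0.81 ± 0.08. Gstm2, of the same class as Gstm3, was at 388.7 and 782.2 on the null arrays, against 159.2 and 170.6 on the control arrays (1.74 ± 0.30, adjusted p = 0.0803), with another probe set at 0.37. Cyp2c29, a P450 that phenobarbital also induces, was at 202.8 and 239 in null liver, against 52.5 and 94.5 in control liver (1.64 ± 0.28, adjusted p = 0.0803). The signal of Cyp2b10 on null replicate 8 was 2.40 times that on null replicate 7, and across the 34 other targets null replicate 8 was the higher of the null pair in 19.

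**Figure D3:**
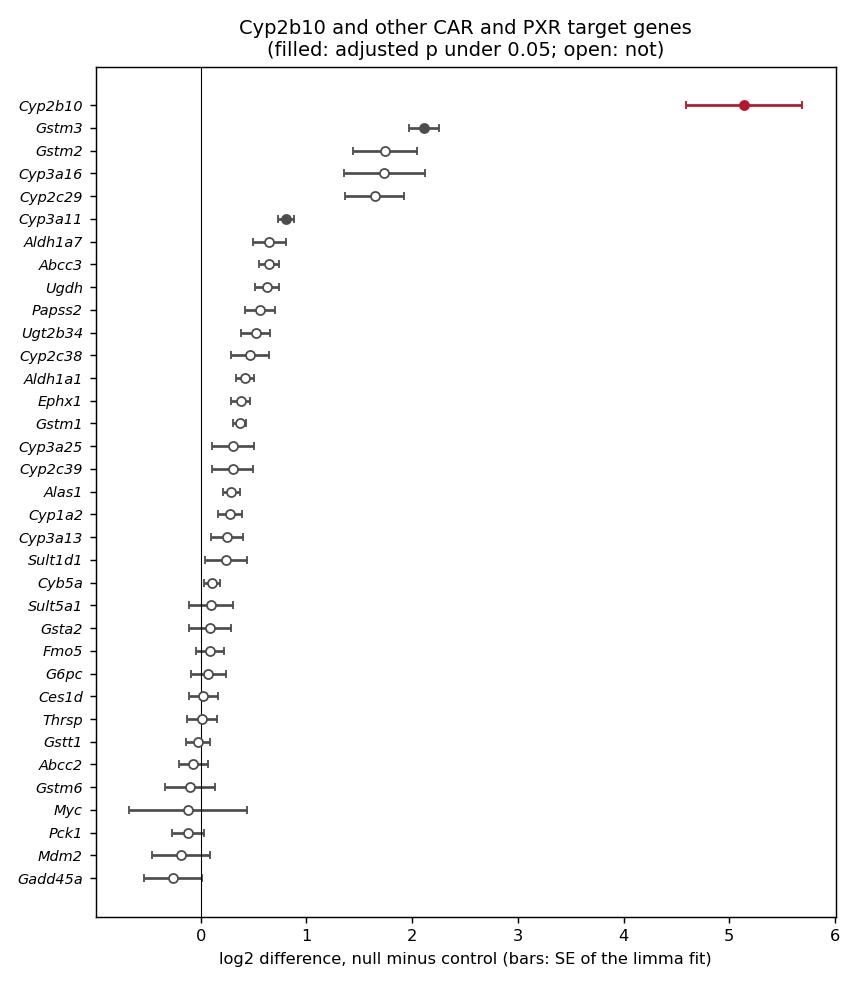
Log2 difference, null minus control, of Cyp2b10 (top, red) and of 34 other tested CAR and PXR target genes (grey), each on its brightest probe set; bars are the SE of the limma fit, and filled points have an adjusted p under 0.05. Cyp2b10 lies at 5.14 and Gstm3 next at 2.11 (its dimmer probe set, not drawn, is at 3.53), while the list's median is 0.28.

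The profiles nearest to Cyp2b10 were found by Euclidean distance over the 4 arrays, on log2 signals centred on each probe set's control mean, among 6512 other tested probe sets with 1 gene symbol. They were those of Gstm3 (97682_r_at, distance 2.50), Lcn2 (2.60), Mmp12 (2.72), Reg1 (3.02) and Mt2 (3.34). None was close in size, since the profile of Cyp2b10 itself had a length of 7.39 on this scale. Lcn2, a lipocalin of the acute phase, was at 76.4 and 395.6 on the null arrays, against 15.8 and 12.6 on the control arrays. Like Cyp2b10 it was higher on null replicate 8 than on null replicate 7, and it did not pass (3.62 ± 0.68, adjusted p = 0.0965), with another probe set at 0.69. Mmp12, the macrophage elastase, was at 55.7 and 96.9 in null liver, against 5.7 and 2.5 in control liver, both under the floor (limma adjusted p = 0.0377). Like Cyp2b10, it passed the filter through its null arrays alone, so that a tested Mmp12 had to be higher in null liver. The same limit holds for Lcn2 and Reg1, whose control signals all lay under the level that the filter requires. Once tested, Lcn2 and Reg1 could therefore only be higher in null liver. Mt2, a metallothionein that binds zinc and copper, was at 739.1 and 849.6 on the null arrays, against 90.7 and 126.6 on the control arrays. Reg1 is a gene of pancreatic acinar cells, whose markers were raised on null replicate 7, and it was at 142 and 65.4 on the null arrays, against 5.7 and 11.8 on the control arrays. The part of pancreatic RNA in its rank was not tested.

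**Figure D4:**
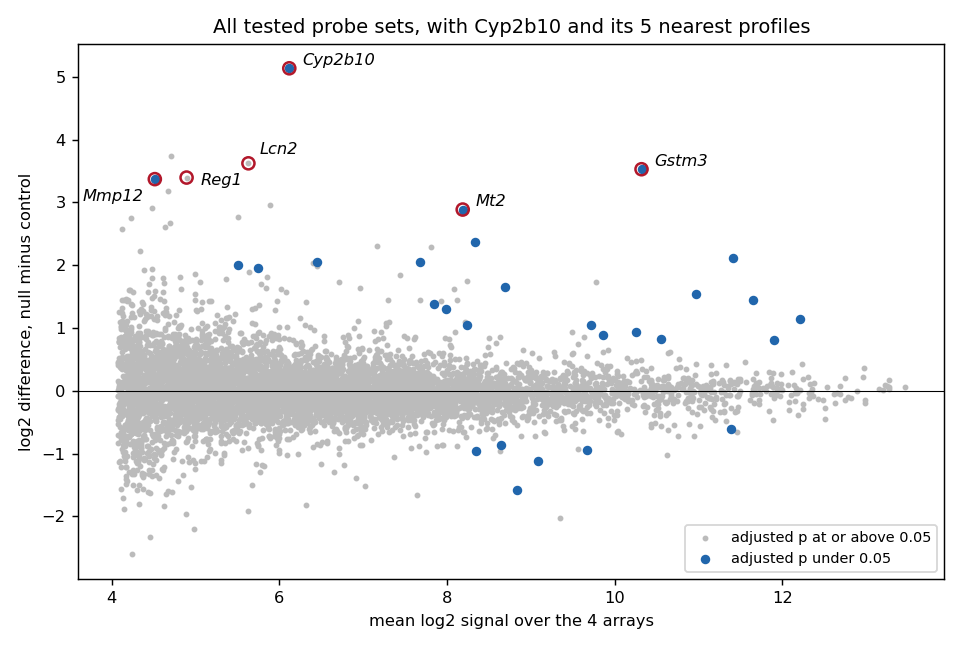
Log2 difference, null minus control, against the mean log2 signal over the 4 arrays for all 7241 tested probe sets; blue points have an adjusted p under 0.05, and red circles mark Cyp2b10 and the 5 nearest profiles. Cyp2b10 stands highest at 5.14, above Lcn2 at 3.62 and Gstm3 at 3.53.

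Cyp2b9 and Cyp2b13 were also set beside other genes with a known sex bias in mouse liver. Of 14 female-biased genes with a probe set, 9 passed the filter, and 0 rose and 0 fell by limma (4 higher and 1 lower at an unadjusted p under 0.05, against 6.16% and 6.46% of all tested probe sets). Their median log2 difference was 0.82, with 7 positive and 2 negative. Cyp3a16, a P450 of this kind, was at 49.1 and 75.2 on the null arrays, against 14.1 and 23.6 on the control arrays (1.74 ± 0.38, adjusted p = 0.135). Sult3a1 and Cux2 lay under the floor on every array, as did Cyp2b13. Of 14 tested male-biased genes 1 fell (Cyp7b1) and 0 rose by limma, where 0.0829% of all tested probe sets fell. Their median log2 difference was -0.17. At an unadjusted p under 0.05, 1 was higher and 7 were lower, against 6.16% and 6.46% of all tested probe sets. Cyp7b1, an oxysterol hydroxylase, was at -0.94 (adjusted p = 0.021) and lost its call without null replicate 7 (0.0639), control replicate 7 (0.138) or control replicate 8 (0.131). Hsd3b5, which encodes a steroid dehydrogenase known from males, had signals of 528.7 and 196.5 in null liver, against 1401 and 1238 in control liver (-2.03 ± 0.40, adjusted p = 0.101). It passed as lower without null replicate 7 (-2.74, adjusted p = 0.0074) and without null replicate 8 (-1.32, adjusted p = 0.0314). Of 13 tested genes of growth hormone and STAT5 signalling 0 passed in limma, with a median of -0.05. At an unadjusted p under 0.05, 1 was higher and 4 were lower, against the same shares of all tested probe sets. Bcl6 and Igfals are counted as lower both here and among the male-biased genes, so these counts are not separate. Likewise, the sex-biased genes Cyp3a16 and Cyp1a2 also belong to the list of CAR and PXR targets. These lists too were chosen with earlier results of these data known. The growth hormone receptor Ghr was at -0.28 ± 0.10 on its brighter probe set and at 0.12 on the other.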

How the data were processed

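Per the labels' protocols, the deposited intensity values, on a linear scale, are GCOS signals that combine perfect match with mismatch probes, and chip fluorescence was scaled to its total. No source used here gives the software version or the scaling target. The 66 control probe sets were left out of the tests. Signals were floored at 7.1 (25th percentile of all signals) and converted to log2. The 7241 probe sets with a mean above log2 of 16.8 (40th percentile) entered limma 3.58.1 under R 4.3.3, with lmFit and eBayes with an intensity trend, two-sided, and Benjamini-Hochberg adjustment over all of them. The prior added 4.78 degrees of freedom to 2 from the arrays. Only the limma fit and its adjustment were run on simulated data with known changes, which did not pass through the floor or the filter.

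Symbols came from the platform's annotation, updated through gene identifiers to GRCm38.p6, and the brightest tested probe set stood for a gene that had several. Members and lists were chosen with earlier results of these data known. Beyond the members, the text names genes of the lists past the threshold, some of small p in the lists and the 5 nearest profiles. Other genes of small p are not named in the results. Examples are Abcc3 (log2 difference 0.65) among the targets, Igfbp1 (2.30) among the growth hormone genes and Cyp4v3 (-0.66) among the male-biased genes. Nr1i3, Nr1i2, Rxra, Gstm2, Cyp2c29, Sult3a1, Cux2, Cyp2b19 and Alb were added for their roles. Alternatives changed the floor, filter, normalization, variance model, replicate block and arrays used. Promoter windows were aligned globally with Biopython.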

Additional observations from a re-analysis of the deposited data

How the results depend on the processing

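Cyp2b10 kept a positive difference under every alternative listed in the report, between 3.93 and 5.86 (4.42 to 5.86 with 1 array left out). It lost its call with the floor at the 10th percentile (5.73), with the floor at the 50th (3.93), without the filter (5.14) and without the trend (5.14), as well as without either null array. The differences of Cyp2b10 from Cyp2b9 and Cyp2b13 were positive under every floor and normalization tried. Cyp2b13, at 0 in the reported setting, came to -0.18 with the floor at the 10th percentile and to -0.015 with a pseudocount of 16 in place of the floor; both are differences between background signals. In limma the 22 higher and 6 lower probe sets became 0 and 0 with the floor at the 50th percentile (459 and 496 at an unadjusted p under 0.05), without the filter (566 and 642) and without the trend (407 and 340). Lower probe sets numbered 15 with the filter at the 60th percentile, 12 with quantile normalization and 13 with robust eBayes. With any 1 array omitted there were 12 to 16 higher and 0 to 4 lower probe sets, where the 0 without control replicate 7 or 8 stood beside 237 and 288 lower at an unadjusted p under 0.05. The 2 CAR and PXR targets that rose became 0 under the floor at the 50th percentile, without the filter or without the trend (14, 12 and 9 at an unadjusted p under 0.05), 4 with the filter at the 60th percentile, quantile normalization or robust eBayes, and 1 to 3 with an array left out. Nr1i2, which overlapped between the groups, ranged between -0.57 and 0.12 with an array left out. Alb, near 0, came to -0.054 with quantile normalization and ranged between -0.042 and 0.072 with an array left out, and the dimmer Ghr probe set between -0.21 and 0.46. The cause of these changes was not tested.

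Titles give both groups the replicate numbers 7 and 8, but no label says what a number shares, and deviations from the group means correlated at -0.03 between the arrays numbered 7 (over tested probe sets). With the replicate block the counts were 37 higher and 15 lower, 4 targets rose, Cyp2b10 stayed at 5.14 (adjusted p = 0.00017), and Hsd3b5 passed as lower (adjusted p = 0.026). Signals under 7.1 carry no order, which limits Cyp2b9, Cyp2b13 and the control level of Cyp2b10.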
